A study of Mus with 6 samples.

Results

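Receptors and target genes of bone morphogenetic protein (BMP) and transforming growth factor beta (TGF-beta) signalling were followed in endothelial cells sorted from infarcted mouse hearts that lacked the chemokine gene Ccl28 (KO) and from wild-type hearts (WT). There were 10 genes out of 20893 in the deposited expression table, picked by symbol. The 6 receptor genes were Bmpr2, Acvrl1, Eng, Bmpr1a, Tgfbr1 and Tgfbr2, and the 4 target genes were Id1, Id3, Smad6 and Smad7. They were picked with the KO and WT values of these same libraries already known, so their differences between genotypes are given as descriptions, without p-values.

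The KO group held 3 libraries (replicates 2, 3 and 4), as did the WT group. All 6 came from cardiac microvascular endothelial cells of mice whose left coronary artery had been ligated, which causes a myocardial infarction, and the cells had been sorted with magnetic beads as CD31+ and CD45-. The genotype field of KO replicates 3 and 4 reads Ccl29-KO and Ccl30-KO, against titles that say Ccl28-KO, and the titles were followed. Ccl28 itself had 0 reads in every KO library, which by counting error alone allows up to 3 reads, and 11 to 24 reads in the WT libraries. The strain, sex, age, time after ligation, the kind of knockout allele and the number of animals behind a library are not given in the sources used here, so the spread between replicates may be technical.

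BMP and TGF-beta ligands bind a pair of type II receptors, which switch on a pair of type I receptors, and these phosphorylate SMAD proteins that enter the nucleus with SMAD4. In endothelium BMP9 and BMP10 signal mainly through the type I receptor ALK1 (Acvrl1), with the type II receptor BMPR2 and the co-receptor endoglin (Eng), and SMAD1 and SMAD5 then switch on Id1, Id3, Smad6 and Smad7. TGF-beta itself binds TGFBR2, which activates TGFBR1 and, through it, SMAD2 and SMAD3. Inherited loss of one copy of ACVRL1 or ENG in humans causes hereditary haemorrhagic telangiectasia, and of BMPR2 heritable pulmonary arterial hypertension.

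Levels are FPKM, the authors' fragment counts scaled to transcript length and library size, so that they can be compared between genes. Summed over all genes, FPKM came to 483543 to 512369 in KO and 401493 to 423899 in WT. The FPKM quoted here were not rescaled to a common total. The libraries held 36004457 to 37780513 reads in KO and 39104282 to 40500067 in WT. Differences are KO minus WT in log2(FPKM + 1), where adding 1 shrinks the differences of weakly expressed genes. The standard error (SE) comes from limma, fitted to the 10806 genes that reached 1 FPKM in 3 or more libraries. Over those genes the median difference was -0.03, and transcript length went with the difference: with the genes cut into 5 equal bins by length, the median was 0.35 in the bin of short transcripts (1791 nt at most) and -0.38 in the bin of long ones (6233 nt or more). The difference of each of the 10 genes, and the counts over the gene lists, are therefore also given with a smooth trend on length taken out of every library. The endothelial genes Pecam1, Cdh5, Tie1, Tek, Kdr, Emcn, Egfl7, Esam and Erg summed to 3589 to 3938 FPKM in KO and 3887 to 3985 FPKM in WT, and none was at 0; 4 of the 9 were lower (Kdr at 57.3%, Cdh5 at 74.3%, Tek at 74.6% and Erg at 85% of WT) and 2 higher (Egfl7 and Emcn), against 3 lower and 0 higher with the length trend removed. The summed level of 12 leukocyte markers was 265 to 392 FPKM in KO and 107 to 242 FPKM in WT. Lyz2 made up most of that sum, at 142.8 to 228.3 FPKM in KO and 58.1 to 149.2 FPKM in WT, and its groups overlapped. The 8 fibroblast markers summed to 13.3 to 16.5 FPKM in KO and 27.4 to 31.9 FPKM in WT. The 9 mural cell markers summed to 343 to 537 FPKM in KO and 457 to 599 FPKM in WT. The 7 cardiomyocyte markers summed to 193 to 225 FPKM in KO and 143 to 204 FPKM in WT. None of the 36 genes in these lists was at 0 in any library. Mitochondrial genes took 10.5% to 12.7% of reads in KO and 6.03% to 10.8% in WT. Ptprc, which encodes CD45, had 1.01 to 1.41 FPKM in KO and 0.871 to 1.71 FPKM in WT. In limma 8 of the 11 tested leukocyte markers were higher in KO, where 18.3% of all tested genes were higher. All 6 tested fibroblast markers and 7 of the 9 mural markers were lower, where 25.8% of all tested genes were lower. The fibroblast markers Lum and Col1a1 were tested only because of their WT levels, since in KO Lum reached 1 FPKM in no library and Col1a1 only in replicate 3. With the length trend removed 4 leukocyte markers were higher, and 5 fibroblast and 6 mural markers were lower. In that setting 1084 of all 10806 tested genes were higher and 991 lower. The part of these other cells in the differences below was not tested.

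Bmpr2 differed most between the genotypes among the 10 genes. It encodes the type II receptor for BMPs and lies on chromosome 1 from 59764279 to 59878081 (gene ID 12168; coordinates here and below are those of the RefSeq annotation of GRCm38.p6). It had 3.80, 3.99 and 3.42 FPKM in KO replicates 2, 3 and 4, against 10.9, 9.52 and 12 FPKM in WT replicates 2, 3 and 4. Every KO library lay far below every WT library. The means were 3.74 ± 0.294 FPKM in KO and 10.8 ± 1.23 FPKM in WT (SD, n = 3 each), so KO was at 34.6% of WT, from 1452 to 1753 reads per library in KO and 4396 to 5577 in WT. The log2 difference of -1.31 (SE 0.101) was the 20th lowest of 10806. Bmpr2 also has the longest transcript of the 10 genes, at an implied 11805 nt, and with the length trend removed its difference was -0.87 (SE 0.080), the 61st lowest.

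**Figure D1:**
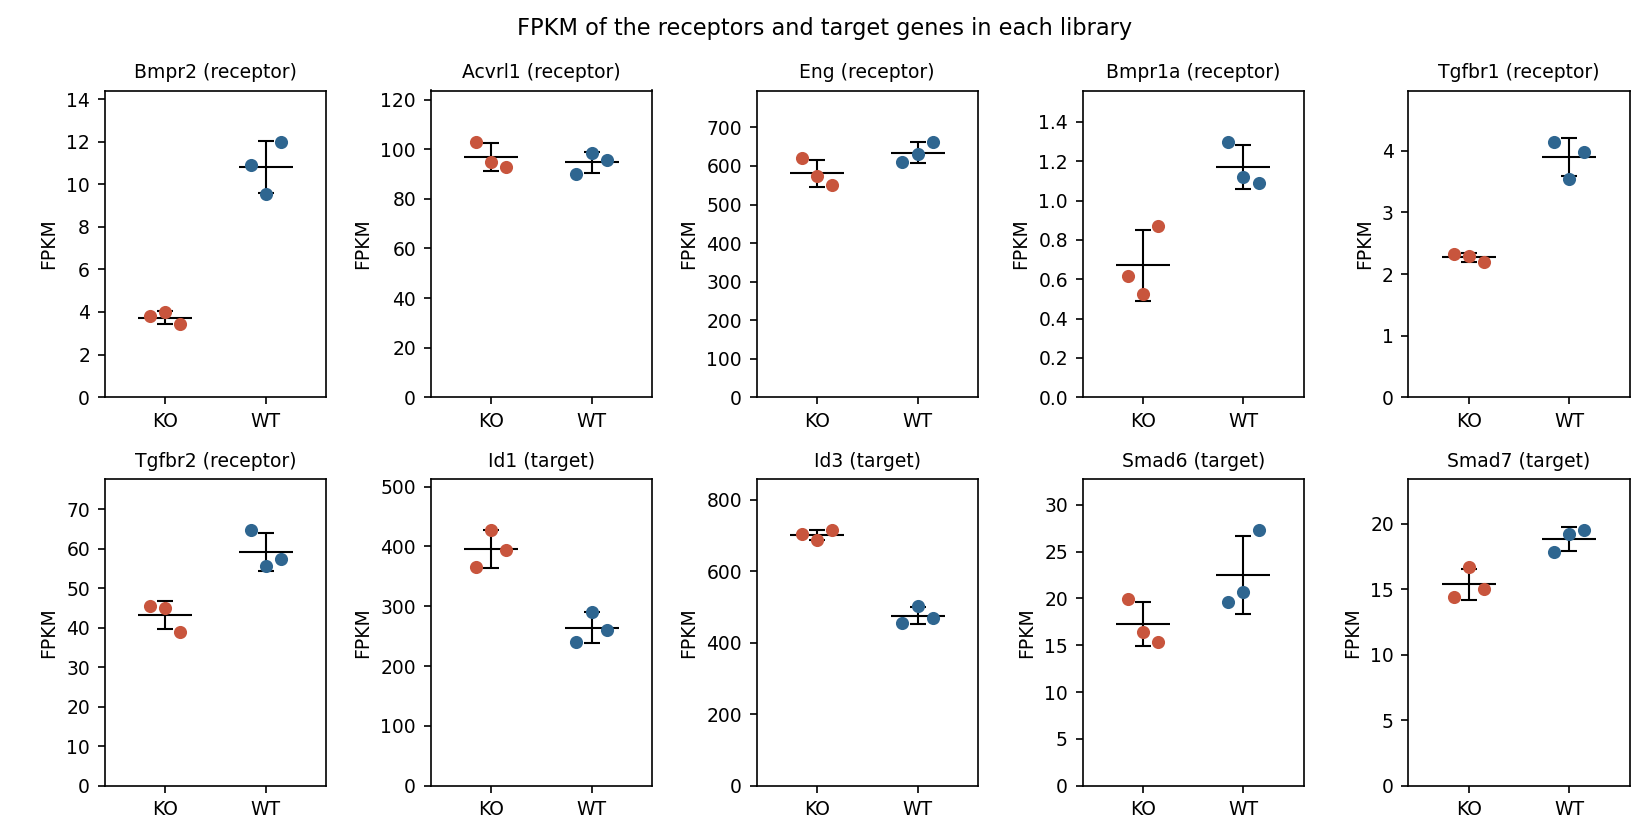
FPKM (vertical axes, each from 0) of the 10 genes in the 3 KO and 3 WT libraries; points are libraries, and the black bar and whiskers are the mean and SD. Bmpr2 is at 3.42 to 3.99 FPKM in KO and 9.52 to 12 FPKM in WT, Id1 and Id3 lie higher in KO without overlap, and the groups overlap for Acvrl1, Eng and Smad6.

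The type II receptor gene of the TGF-beta branch, Tgfbr2 (chromosome 9 from 116087695 to 116175363, gene ID 21813), was lower in KO by a smaller step. It had 45.4, 44.9 and 39.0 FPKM in the KO libraries, against 64.7, 55.6 and 57.4 FPKM in the WT libraries. The groups did not overlap, and the KO mean was 72.8% of the WT mean (43.1 ± 3.57 FPKM in KO and 59.3 ± 4.83 FPKM in WT). The log2 difference was -0.45 (SE 0.086), and -0.26 (SE 0.073) with the length trend removed, for a transcript of 4788 nt.

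The 3 type I receptor genes differed from one another. Acvrl1, the ALK1 gene on chromosome 15 from 101128522 to 101145336 (gene ID 11482), had 103.1, 94.9 and 92.7 FPKM in KO, against 90.2, 98.4 and 95.8 FPKM in WT. The groups overlapped, with the highest and the second lowest of the 6 values in KO, and the means were 96.9 ± 5.45 FPKM in KO and 94.8 ± 4.17 FPKM in WT. The log2 difference was 0.03 (SE 0.071, 95% interval -0.13 to 0.19), against 0.13 with the length trend removed but -0.10 with quantile normalization, where its sign turned, as it did without KO replicate 2 (-0.014) or WT replicate 2 (-0.004).

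Tgfbr1, which encodes the type I receptor of TGF-beta (ALK5; chromosome 4 from 47353222 to 47414926, gene ID 21812), had 2.32, 2.30 and 2.19 FPKM in KO, against 4.15, 3.55 and 3.98 FPKM in WT. All KO libraries lay below all WT libraries, and the KO libraries lay close together. KO averaged 2.27 ± 0.067 FPKM and WT 3.90 ± 0.309 FPKM, or 58.3% of WT, with a log2 difference of -0.58 (SE 0.093), and of -0.28 (SE 0.080) with the length trend removed. Bmpr1a, the gene of the BMP type I receptor ALK3 (chromosome 14 from 34411061 to 34503336, gene ID 12166), was the lowest of the 10 genes, with 0.614, 0.526 and 0.872 FPKM in KO, against 1.3, 1.12 and 1.09 FPKM in WT. It had 119 to 191 reads per library in KO and 261 to 320 in WT, and it passed the filter on low values only through the WT libraries, so a KO level under that of WT was built into its being tested. Its log2 difference was -0.38 (SE 0.114), and -0.10 (SE 0.120) with the length trend removed.

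Eng, the gene of the co-receptor endoglin on chromosome 2 from 32646595 to 32682669 (gene ID 13805), was the most abundant receptor gene. It had 620.0, 573.7 and 550.0 FPKM in KO, against 611.4, 630.3 and 663.3 FPKM in WT, and KO replicate 2 lay within the WT range. The means were 581 ± 35.6 FPKM in KO and 635 ± 26.3 FPKM in WT. The log2 difference of -0.13 (SE 0.079, 95% interval -0.30 to 0.05) became -0.06 with the length trend removed and -0.50 with quantile normalization. The annotated span of Eng overlaps that of Fpgs. The kit was stranded, but the counting setting is not given in the sources used here, so reads in a shared stretch could belong to either gene. The spans of Tgfbr1, Tgfbr2 and Smad7 likewise overlap those of the noncoding genes Gm32435, Gm31292 and Gm41776.

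Because Acvrl1 differed little and Bmpr2 much, their levels relative to each other within a library differed between the genotypes. The ratio of Acvrl1 to Bmpr2 FPKM was 27.2, 23.8 and 27.1 in KO, against 8.28, 10.3 and 7.99 in WT. The ratio of Tgfbr2 to Tgfbr1, the TGF-beta pair, was 19.6, 19.5 and 17.8 in KO, against 15.6, 15.7 and 14.4 in WT. The summed FPKM of the 3 type I receptor genes was 99.9 ± 5.42 in KO and 99.9 ± 3.79 in WT, a sum made up almost entirely of Acvrl1. These ratios are as deposited: with the length trend removed Tgfbr2 and Tgfbr1 differed alike, by -0.26 and -0.28, while Acvrl1 and Bmpr2 stood apart, at 0.13 and -0.87. In bulk RNA, fewer cells of a type and less RNA per cell cannot be told apart, and this holds for every level given here.

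The target genes split into 2 pairs. Id1 and Id3, which encode inhibitors of DNA binding that pair with basic helix-loop-helix factors and keep them off DNA, were both higher in KO. Id1 (chromosome 2 from 152736251 to 152737410, gene ID 15901) had 364.8, 427.3 and 394.1 FPKM in KO, against 239.7, 291.1 and 260.4 FPKM in WT. Id3 (chromosome 4 from 136143822 to 136145392, gene ID 15903) had 705.2, 687.7 and 715.2 FPKM in KO, against 456.3, 502.0 and 468.4 FPKM in WT. Neither gene's groups overlapped, and the KO means were 1.5-fold and 1.48-fold the WT means, for Id1 and Id3 in turn. The ratio of Id3 to Id1 differed by less than its spread, at 1.79 ± 0.164 in KO and 1.81 ± 0.0902 in WT (SD, n = 3 each).

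The log2 difference was 0.58 (SE 0.093) for Id1 and 0.56 (SE 0.074) for Id3. Both transcripts are short, at 1160 nt for Id1 and 953 nt for Id3. After removal of the length trend the difference was 0.24 (SE 0.103) for Id1 and 0.17 (SE 0.072) for Id3. With quantile normalization it was 0.32 for Id1 and 0.13 for Id3.

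Smad6 and Smad7, which encode the inhibitory SMADs that block the activated type I receptors in a feedback loop, had lower means in KO. Smad6 (chromosome 9 from 63953076 to 64022085, gene ID 17130) had 19.9, 16.4 and 15.4 FPKM in KO, against 19.6, 20.7 and 27.3 FPKM in WT, so KO replicate 2 lay above WT replicate 2. Its log2 difference was -0.36 (SE 0.131) and -0.35 with the length trend removed, but -0.22 without WT replicate 4, the highest library, and -0.15 without both libraries numbered 4. Smad7 (chromosome 18, gene ID 17131) had 14.4, 16.7 and 15 FPKM in KO, against 17.8, 19.2 and 19.5 FPKM in WT, with no overlap. Its difference was -0.28 (SE 0.081), and -0.12 (SE 0.080) with the length trend removed.

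All 10 genes were tested, and 2 were past an adjusted p of 0.05 as higher in KO (Id1 and Id3) and 6 as lower (Bmpr2, Bmpr1a, Tgfbr1, Tgfbr2, Smad6 and Smad7), where 44.2% of all tested genes were past it, 18.3% higher and 25.8% lower. The KO and WT values did not overlap for 7 of the 10 genes, 2 of them higher and 5 lower in KO, against 54.7% of all tested genes, 22.8% higher and 31.9% lower. Since these genes were picked with this contrast known, and Bmpr1a was tested only because of its WT levels, nothing is read from the counts. With the length trend removed 3 of the 10 were past the threshold, all lower (Bmpr2, Tgfbr1 and Tgfbr2), against 19.2% of all tested genes, 9.17% lower; over all genes 1084 were then higher and 991 lower, against 1982 higher and 2790 lower as deposited. In the authors' deposited table, which comes from their own comparison of read counts, the log2 fold change was -1.47 for Bmpr2, -0.75 for Bmpr1a, -0.72 for Tgfbr1, -0.40 for Tgfbr2, -0.07 for Eng and 0.09 for Acvrl1. The same table gives 0.64 for Id1, 0.62 for Id3, -0.32 for Smad6 and -0.23 for Smad7.

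**Figure D2:**
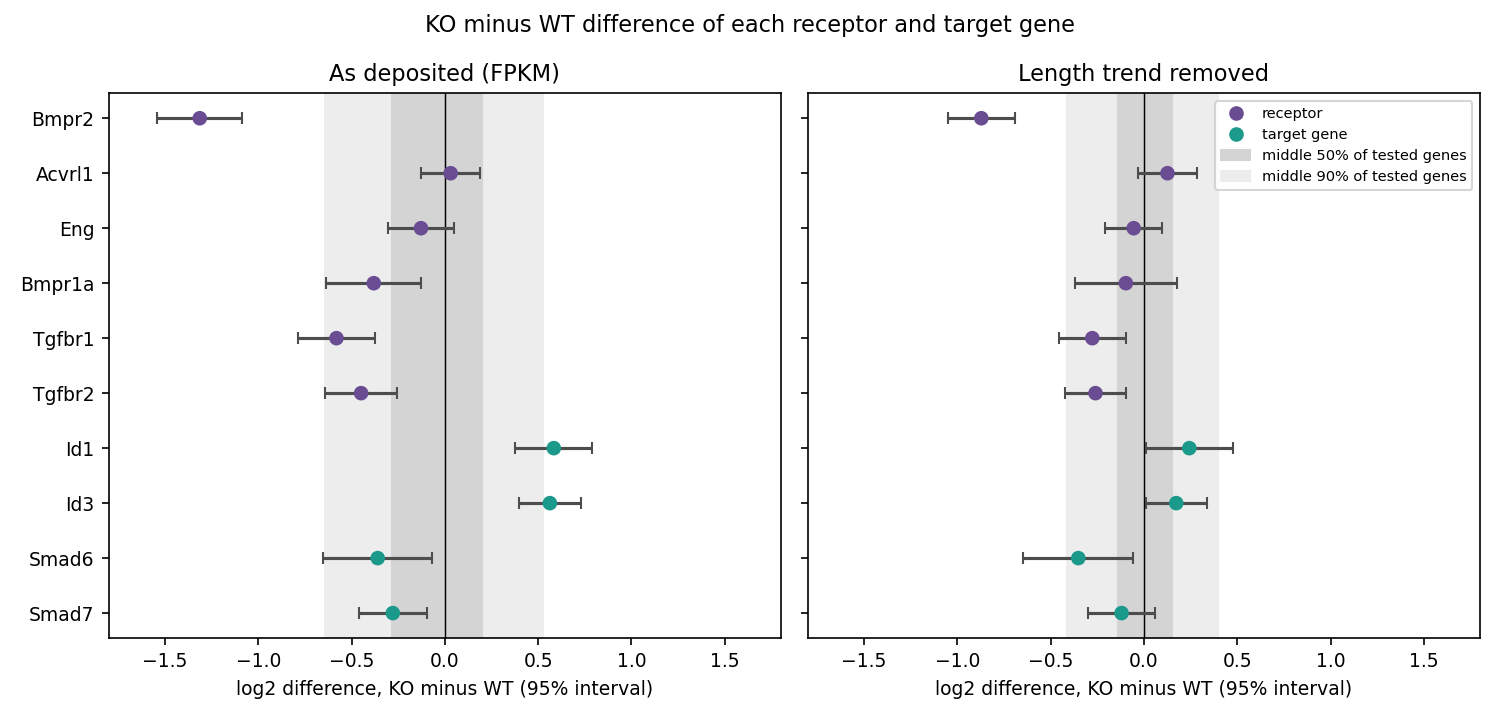
Difference between KO and WT (horizontal axis, log2(FPKM + 1), with its 95% interval from limma) of each receptor and target gene, as deposited (left) and with the length trend removed (right); grey bands hold the middle 50% and 90% of the tested genes. Bmpr2 is outside both bands on either side, at -1.31 and -0.87, while Id1 and Id3 are at 0.58 and 0.56 as deposited and at 0.24 and 0.17 with the trend removed.

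Set against each other, the targets were higher relative to the receptors in KO. The mean log2(FPKM + 1) of the 4 targets exceeded that of the 6 receptors by 2.21, 2.29 and 2.25 in KO, against 1.51, 1.75 and 1.703 in WT. The groups did not overlap, and the gap was 0.60 wider in KO. The pairs within the target group lay on opposite sides of 0: the mean difference was 0.57 for Id1 and Id3 and -0.32 for Smad6 and Smad7, beside -0.47 for the receptors. Smad6 and Smad7 were thus nearer to the receptors than to Id1 and Id3.

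Transcript length also separated the sets compared, with a median of 2082 nt for the targets and 5434 nt for the receptors, against 3429 nt over all tested genes. With the length trend removed the gap was 2.05, 2.14 and 2.00 in KO, against 1.68, 1.92 and 1.92 in WT, so the groups still did not overlap but the difference was 0.225. In the same setting the mean difference between KO and WT was 0.21 for Id1 and Id3, -0.24 for Smad6 and Smad7 and -0.24 for the receptors.

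**Figure D3:**
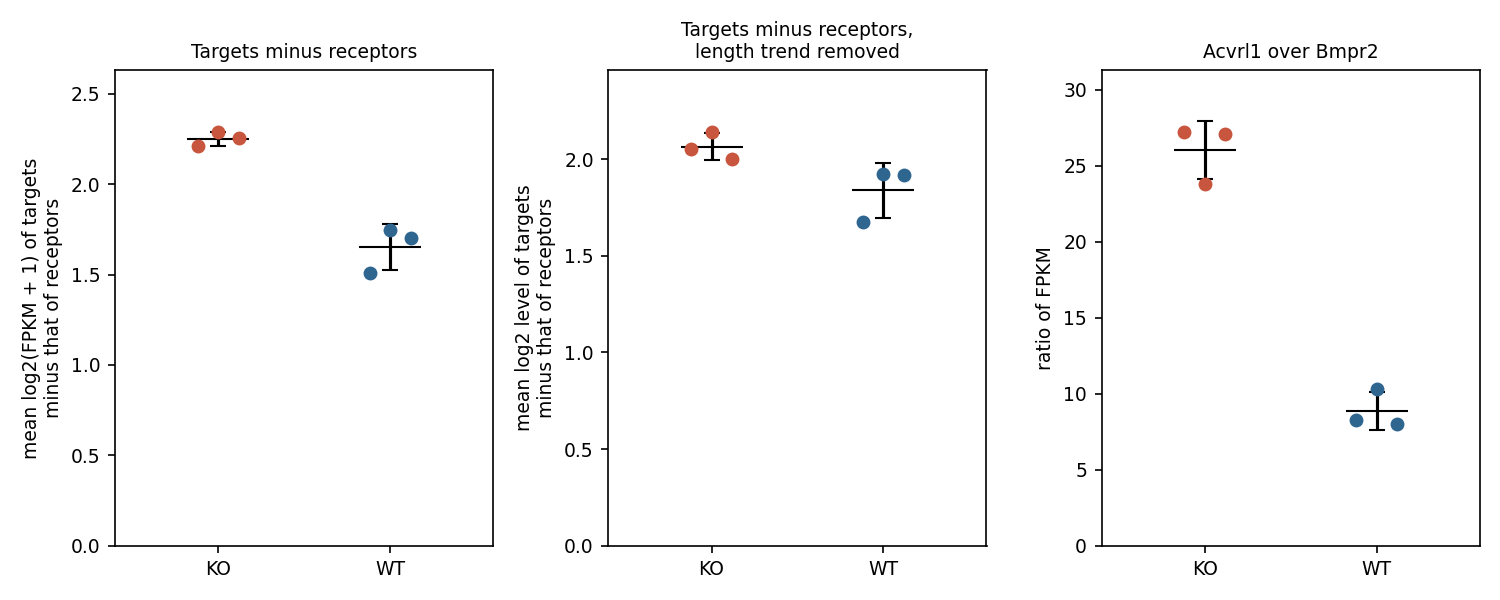
Gap between the mean log2 level of the 4 targets and that of the 6 receptors in each library, as deposited (left) and with the length trend removed (middle), and the ratio of Acvrl1 to Bmpr2 FPKM (right), with mean and SD. The gap is 0.60 wider in KO as deposited and 0.225 wider with the trend removed, and the ratio is 23.8 to 27.2 in KO and 7.99 to 10.3 in WT.

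**Figure D4:**
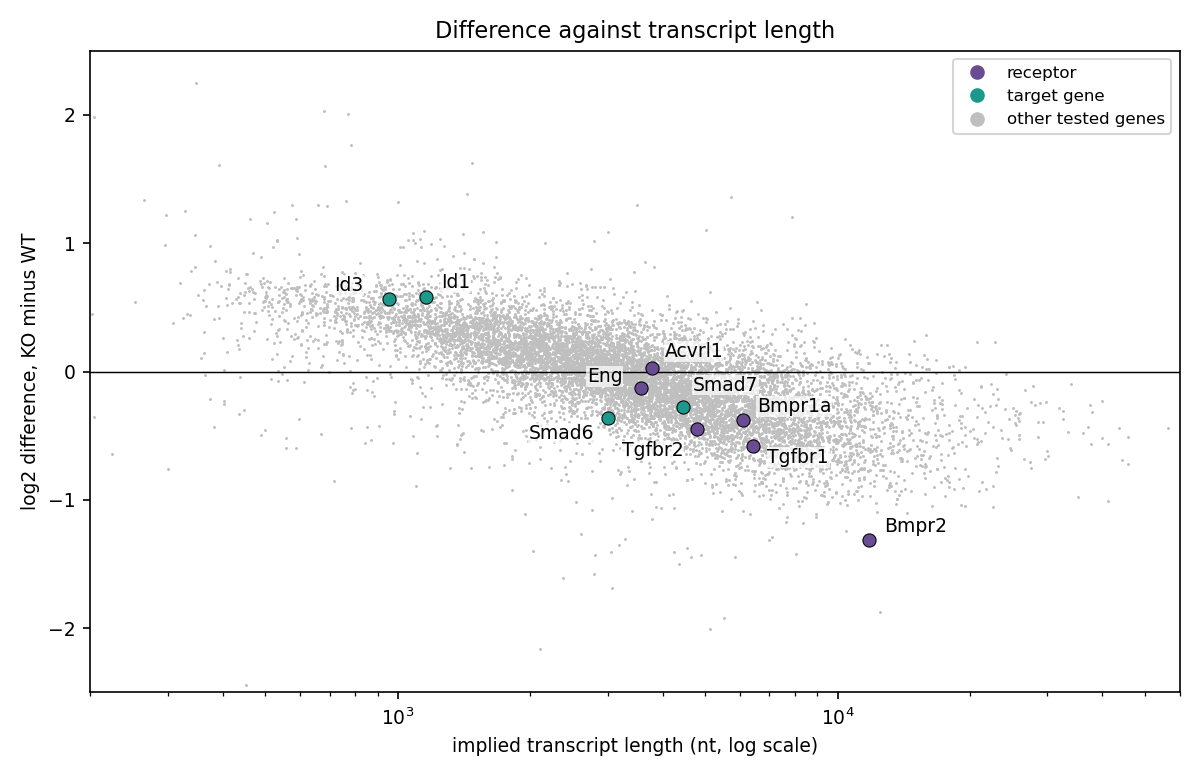
Log2 difference between KO and WT (vertical axis) against the transcript length implied by FPKM and reads (nt, log scale) for the tested genes, with the 10 genes marked; 2 of the 10806 genes lie outside the axes. Id1 and Id3 lie at the short end, at 1160 and 953 nt, inside the cloud of genes of like length, while Bmpr2 at 11805 nt lies below it.

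The order of the 10 levels was nearly the same in both genotypes. In KO it ran from Id3 (703 ± 13.9 FPKM) and Eng (581 ± 35.6) over Id1 (395 ± 31.3), Acvrl1, Tgfbr2, Smad6 (17.3 ± 2.35) and Smad7 (15.4 ± 1.18) to Bmpr2, Tgfbr1 and Bmpr1a (0.671 ± 0.180). In WT Eng came first (635 ± 26.3 FPKM), before Id3 (476 ± 23.7) and Id1 (264 ± 25.9), and the order of the other genes was that of KO. Smad6 and Smad7, neighbours in both, differed by less than the SD of Smad6 in KO and in WT, while all other neighbours in either order differed by more than the larger of their SDs (22.5 ± 4.20 FPKM for Smad6 and 18.8 ± 0.932 for Smad7 in WT). In KO Id3 exceeded Eng in all 3 libraries, and in WT Eng exceeded Id3 in all 3. By mean level Eng ranked 112th of the 20893 genes in KO and 78th in WT, and Id3 94th in KO and 106th in WT.

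The other genes of the pathway were taken from 7 lists with 69 symbols, of which 67 were found and 54 were tested; the other 13 did not pass the filter on low values. In KO 27 of the 54 fell and 3 rose, where 25.8% of all tested genes were lower and 18.3% higher, with a median log2 difference of -0.37 against -0.03 over all tested genes, and a median length of 4870 nt. With the length trend removed 12 fell, where 9.17% of all tested genes were lower, and 5 rose, where 1084 of 10806 were higher, with a median of -0.17. The shares over all tested genes are the background for each list below. The 5 were Id2, Bambi, Smad2, Nedd4l and Ppm1a, of which the last 3, named after their values were seen, have transcripts of 14168, 18468 and 10696 nt and were slightly lower in KO as deposited (-0.13, -0.06 and -0.03). Without both libraries numbered 4, 13 fell and 2 rose. Adjusted p-values here and below are from limma with Benjamini-Hochberg adjustment over all 10806 genes. The 7 lists were chosen with earlier results of these data known. Their counts and the adjusted p-values of their genes are therefore given as descriptions, and nothing is read from the counts set beside the background.

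Among the ligand genes 3 of 7 tested fell and none of the 7 rose, against 2 and 0 with the length trend removed. Inhbb, which encodes the beta B subunit of activin and inhibin, had 3.99, 7.13 and 4.85 FPKM in KO, against 16.5, 11.2 and 19.5 FPKM in WT (log2 difference -1.40, SE 0.208, adjusted p = 0.000907). It passed in all 16 other settings tried, with -1.26 after removal of the length trend. One of them, the filter at 5 FPKM, kept Inhbb only because of its WT levels. Tgfb3 fell to 6.53 ± 0.436 FPKM in KO, against 8.87 ± 0.826 FPKM in WT (adjusted p = 0.0088), a call lost with quantile normalization, without both libraries numbered 4 and with the replicate block and removal of the length trend together. Tgfb1, the main TGF-beta gene of endothelium, averaged 121.6 ± 3.47 FPKM in KO and 107.1 ± 5.25 FPKM in WT and did not pass (adjusted p = 0.0515). It passed in 2 of the 16 other settings, median-ratio scaling (adjusted p = 0.0236) and FPKM of at least 5 (adjusted p = 0.0485). Its log2 difference of 0.18 shrank to 0.06 after removal of the length trend and to 0.03 after quantile normalization, and neither passed. Bmp6, a BMP made by endothelium itself that controls iron balance from the liver, averaged 36.6 ± 6.82 FPKM in KO and 47.5 ± 6.03 FPKM in WT (adjusted p = 0.0415), and kept its call in 6 of the 16 other settings, losing it among others with the length trend removed and without KO replicate 3 or 4 or WT replicate 3 or 4. Gdf2, the BMP9 gene, was at 0 FPKM in all KO libraries and averaged 0.00571 FPKM in WT.

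Among other receptors and co-receptors 6 of 7 tested fell and none of the 7 rose, beside 25.8% of all tested genes lower, but only 2 of the 7 fell with the length trend removed. Acvr2a, a type II receptor gene for activins and BMPs, had 4.01, 3.28 and 2.83 FPKM in KO, against 6.08, 5.80 and 6.10 FPKM in WT (log2 difference -0.69, adjusted p = 0.00121). Acvr1, which encodes the BMP type I receptor ALK2, had 8.29, 8.22 and 8.16 FPKM in KO, against 10.8, 11.8 and 11.5 FPKM in WT (log2 difference -0.42, adjusted p = 0.00218). Both also passed with the length trend removed, at -0.43 for Acvr2a and -0.33 for Acvr1. Tgfbr3, the gene of betaglycan, which presents TGF-beta2 to TGFBR2, and Acvr1b, the activin type I receptor gene, had differences of -0.56 and -0.48 (adjusted p = 0.00243 and 0.0064). These 2 calls were lost with the length trend removed, at -0.27 and -0.32, and that of Acvr1b also without both libraries numbered 4. The other 2 that fell, Acvr2b and Rgmb, differed by -0.51 and -0.39 as deposited, and by -0.06 and -0.10 with the length trend removed, where neither passed.

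Of the signal-carrying SMAD genes 3 of 5 tested fell and none of the 5 rose, beside 25.8% of all tested genes lower, but with the length trend removed 1 fell (Smad5) and 1 rose (Smad2). Smad5, whose product carries BMP signals, had 11, 11.8 and 9.78 FPKM in KO, against 19.1, 17.2 and 19.1 FPKM in WT (log2 difference -0.72, SE 0.088, adjusted p = 0.000532). It also passed after removal of the length trend, at -0.37. Smad4, the common partner, fell to 11.04 ± 0.700 FPKM in KO, against 15.3 ± 0.290 FPKM in WT (adjusted p = 0.00187), but its difference was -0.08 with the length trend removed (adjusted p = 0.427). Smad1, the other main BMP SMAD gene, averaged 23.8 ± 1.61 FPKM in KO and 27.9 ± 0.317 FPKM in WT (adjusted p = 0.0326), a call lost with the length trend removed, with median-ratio scaling and without any one library except KO replicate 4.

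The target genes outside the 10 moved both ways, 3 of 11 tested up and 2 down, against 2 up and 1 down with the length trend removed. Id2, the third ID gene, rose with the largest step of the list: 29.5, 29.0 and 36.5 FPKM in KO, against 15.7, 17.6 and 13.4 FPKM in WT (log2 difference 0.98, SE 0.115, adjusted p = 0.000518). It passed in all 16 other settings, with 0.67 after removal of the length trend, for a transcript of 1272 nt. Bambi, which encodes a decoy receptor without a kinase that dampens BMP and TGF-beta signals, had 4.62, 4.18 and 5.54 FPKM in KO, against 3.39, 3.07 and 2.79 FPKM in WT (log2 difference 0.50, adjusted p = 0.00613). With a transcript of 5682 nt, its difference was larger with the length trend removed (0.76), and the call was lost without both libraries numbered 4.

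Hey1, a target shared with Notch signalling and named after its values were seen, averaged 56.4 ± 4.96 FPKM in KO and 48.0 ± 1.07 FPKM in WT (adjusted p = 0.0403). Its call was lost with quantile normalization, with the length trend removed and without any one library except KO replicate 2. Ccn2, the connective tissue growth factor gene and a classical TGF-beta target, fell to 12.2, 16.4 and 13.2 FPKM in KO, against 23.1, 22.7 and 26.1 FPKM in WT (log2 difference -0.75, SE 0.108, adjusted p = 0.00084), and passed in all 16 other settings. Skil, the gene of the SMAD co-repressor SnoN, fell to 4.31 ± 0.984 FPKM in KO, against 7.18 ± 1.12 FPKM in WT (adjusted p = 0.00723), and lost its call with the length trend removed and without both libraries numbered 4.

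**Figure D5:**
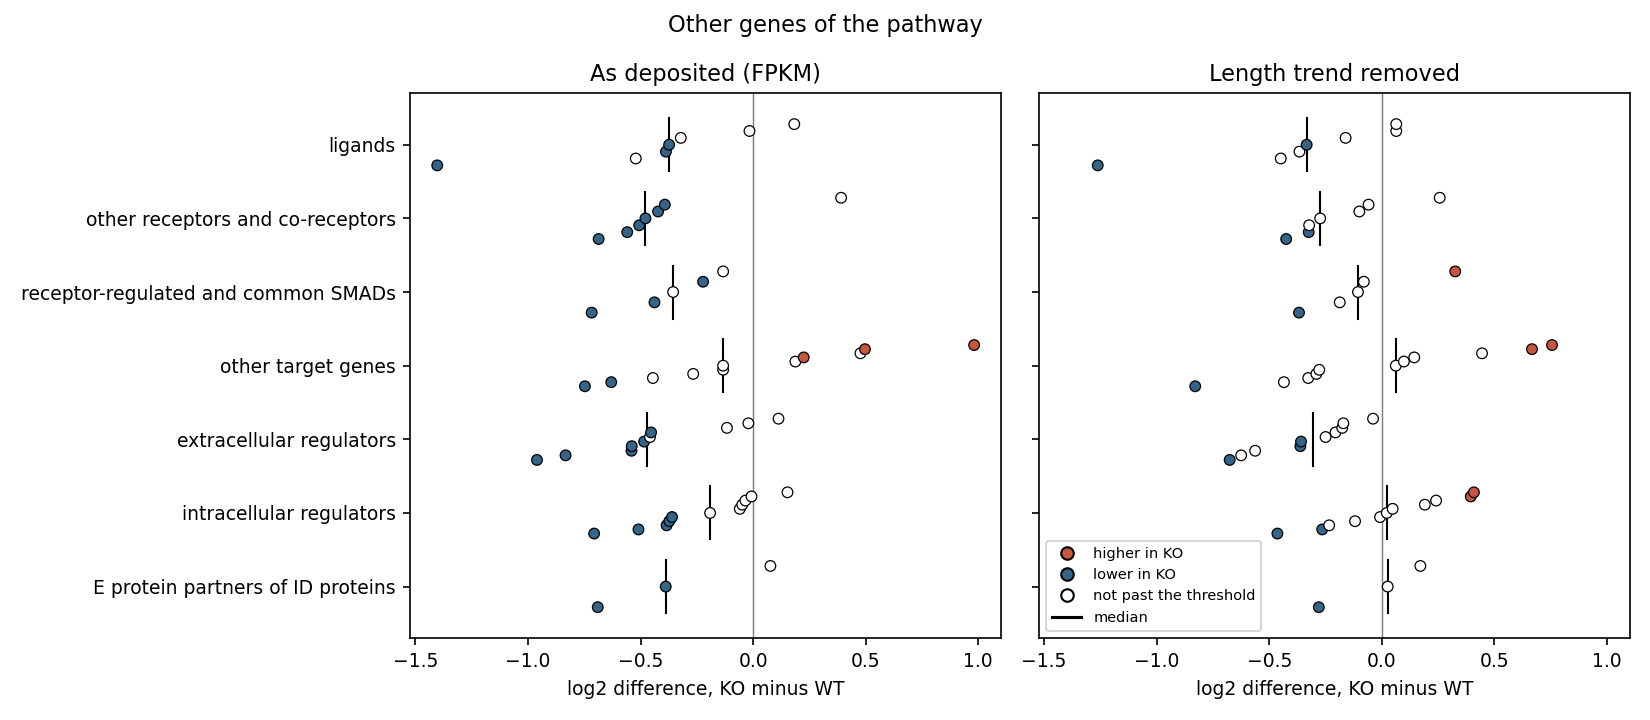
Log2 difference between KO and WT (horizontal axis) of the 54 tested pathway genes outside the 10, by list (vertical axis), as deposited (left) and with the length trend removed (right); filled points passed limma and vertical lines are medians. As deposited 27 are lower and 3 higher; with the trend removed 12 are lower and 5 higher.

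Of the extracellular regulators 6 of 10 tested fell and none of the 10 rose, against 3 and 0 with the length trend removed. Among those 3 was Mgp, a matrix protein gene that was not past the threshold as deposited, at 0.11, and turned to -0.36. Crim1, a membrane protein gene whose product binds BMPs, had 20.9, 19.6 and 15 FPKM in KO, against 37.6, 32.8 and 39.8 FPKM in WT (log2 difference -0.96, SE 0.121, adjusted p = 0.000568), and passed in all 16 other settings. The latent TGF-beta binding protein genes Ltbp4, Ltbp1 and Ltbp3 had differences of -0.54, -0.54 and -0.45 (adjusted p = 0.0018, 0.00488 and 0.00543). None of these 3 calls held with the length trend removed, where the differences were -0.25, -0.18 and -0.21, and that of Ltbp1 was also lost without both libraries numbered 4. The fibroblast marker sum given above was lower in KO, and the mural sum overlapped. Much of the mural sum was Acta2 (145.3 FPKM in KO and 144.6 FPKM in WT) and Tagln (137.4 and 128.1 FPKM), neither of which passed. In limma 7 of the 9 mural markers were lower, against 6 with the length trend removed. These markers stand beside the matrix-bound regulators, and the part of fibroblasts and mural cells was not tested.

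Of the intracellular regulators 5 of 11 tested fell and none of the 11 rose, with a median of -0.19 and beside 25.8% of all tested genes lower. Once the length trend was removed 2 fell and 2 rose, with a median of 0.022, and Trim33, at -0.37 as deposited, stood at 0.022. Ski, a co-repressor of SMADs, had 33.0, 31.9 and 29.4 FPKM in KO, against 43.3, 44.3 and 47.7 FPKM in WT (log2 difference -0.51, adjusted p = 0.000872). Smurf2, a ubiquitin ligase gene whose product works with SMAD7 on the receptors, had 13.6, 14.2 and 10.8 FPKM in KO, against 22.7, 18.8 and 23.4 FPKM in WT (log2 difference -0.71, adjusted p = 0.00143). Both also passed with the length trend removed, at -0.27 for Ski and -0.46 for Smurf2. Its relative Smurf1 and the SMAD anchor gene Zfyve9 differed by -0.36 and -0.38 (adjusted p = 0.00464 and 0.00962). After removal of the length trend they differed by -0.12 and 0.048, and neither passed. Both calls were lost without both libraries numbered 4.

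The E protein genes encode the partners that ID proteins hold back, and 2 of the 3 fell, against 1 with the length trend removed. Tcf4 had 7.05, 7.01 and 6.29 FPKM in KO, against 11.5, 10.9 and 12.2 FPKM in WT (log2 difference -0.69, adjusted p = 0.000523), and -0.28 after removal of the length trend, where it also passed. Tcf12 differed by -0.39 (adjusted p = 0.00698), but by 0.026 with the length trend removed, where its sign turned, and lost its call without both libraries numbered 4. Tcf3 averaged 53.7 ± 3.95 FPKM in KO and 50.9 ± 3.16 FPKM in WT, and its log2 difference of 0.08 did not pass (adjusted p = 0.451).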

How the data were processed

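The authors deposited one table with an FPKM for each gene in each library. A second deposited table, per its file headers, holds the DESeq2 results of the authors: group means (normalized signal), a linear fold (ratio), its log2, and p-value and q-value columns. Its log2 fold changes are quoted as theirs, and its p-values were not used. Per the submitters' processing notes, the build was mm10, and the tools named, with no role given, were DESeq2 1.22.1, featureCounts 1.6.2, HISAT2 2.1.0, GATK 4.0.11.0, fastp 0.19.3, Cufflinks and StringTie 1.3.4d.

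For genes that reached 1 FPKM in 3 or more libraries, log2(FPKM + 1) was fitted by genotype in limma 3.58.1 under R 4.3.3 with a mean-variance trend, two-sided, with Benjamini-Hochberg adjustment over all 10806 genes and a threshold of 0.05. Ratios of FPKM to the deposited group means gave library factors, from which the number of reads per gene followed (below 1000 reads, 100% of them came out whole within 0.05 reads), the depth, and an implied transcript length. The 3207 genes outside the second table had no recovered reads. The length trend was a natural spline with 5 degrees of freedom fitted per library to each gene's deviation from its mean. Between replicates the chi-square statistic per gene was 19.5 to 66.7, far over sampling noise. Coordinates are from RefSeq (GRCm38.p6), to which 20334 gene IDs matched. No sequence or promoter was used here. Fits were tested on simulated data. Python 3.11.15, pandas 2.3.3 and matplotlib 3.10.9 made the summaries and figures.

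The 10 genes and all gene lists were chosen with earlier results of these data known. The text names the 10 genes and, in each list, up to 4 genes past the threshold with the smallest p; Hey1, Smad2, Nedd4l, Ppm1a, Tgfb1, Tcf3, Mgp, Trim33, Acvr2b and Rgmb were named after their values were seen. Other settings were quantile normalization, median-ratio scaling, a pseudocount of 0.1, no filter, FPKM of at least 5, the length trend, the replicate number as a block, both together, limma-voom on recovered reads and each library left out; leaving out both libraries numbered 4 was added after seeing the data.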

Additional observations from a re-analysis of the deposited data

How the results depend on the processing

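Of the 16 other settings, Bmpr2, Eng, Tgfbr2, Smad6 and Smad7 kept a negative and Id1 and Id3 a positive difference in all 16, Tgfbr1 kept a negative one in the 15 and Bmpr1a in the 11 that tested it, and Acvrl1 was negative in 3. Far fewer settings put some of these genes past the threshold. Bmpr2 was past it in 16, Tgfbr2 in 15, Tgfbr1 and Id1 in 14 and Id3 in 13. Smad7 was past it in 9, Smad6 in 5, Bmpr1a in 4, Eng in 1 and Acvrl1 in 0. The gap between targets and receptors, 0.598 wider in KO, was 0.483 with quantile normalization, 0.712 with a pseudocount of 0.1, 0.734 with limma-voom, 0.225 with the length trend removed and 0.549 to 0.665 with a library left out, where leaving out a WT library also takes Bmpr1a below the filter. Receptors past the threshold as lower numbered 2 among genes with FPKM of at least 5, where 4 were tested, and 3 to 4 with a library left out. The filter at 5 FPKM kept Bmpr2 only because of its WT levels, and so it did Inhbb, Acvr2a and Skil among the other pathway genes. Targets past it as higher numbered 1 after quantile normalization, against 0 with the length trend removed. Targets past it as lower numbered 1 with quantile normalization or no filter, 0 with median-ratio scaling, with the length trend removed or without both libraries numbered 4, and 0 to 2 with a library left out (0 without KO replicate 4 or WT replicate 4). Over all genes, 1084 were higher and 991 lower with the length trend removed, and 744 higher and 1105 lower without both libraries numbered 4. Pathway genes outside the 10 that were higher numbered 5 with median-ratio scaling and 5 with the length trend removed, and 2 to 4 with a library left out; those lower numbered 12 with the length trend removed and 13 without both libraries numbered 4. Among the pathway genes named above, removal of the length trend turned the sign to positive for Zfyve9 (0.048), Tcf12 (0.026), Trim33 (0.022), Smad2 (0.326), Nedd4l (0.409) and Ppm1a (0.395), and to negative for Mgp (-0.359). The sign turned for some pathway genes not named above too. The cause of these shifts was not tested.

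KO and WT share the replicate numbers 2, 3 and 4, but nothing says what a number marks, and deviations of same-numbered libraries correlated at -0.195, -0.349 and -0.222, so the numbers were not taken as pairs. With the replicate number as a block 1542 genes were higher and 2207 lower, and 1 target and 3 receptors were lower. With the block and the length trend removed together, 332 genes were higher and 383 lower. In that setting 1 receptor (Bmpr2) was lower, 0 targets were higher and 0 lower, and the gap was 0.225. Of the other pathway genes 3 were lower (Inhbb, Ccn2 and Crim1). Acvr1, Acvr2a, Smad5, Ski, Smurf2 and Tcf4, which passed with the length trend alone removed, did not pass there. Zfyve9, Tcf12, Trim33 and Ppm1a stood at 0.048, 0.026, 0.022 and 0.395. Depth limits only the low genes, such as Bmpr1a.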

Other observations

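The deposited annotation assigns 89 genes to the KEGG term TGF-beta signaling pathway, 81 of them outside the 10 genes above. Of these 81, 59 were tested, 25 fell and 8 rose in KO in limma, where 25.8% of all tested genes were lower and 18.3% higher, with a median log2 difference of -0.23, against -0.03 over all tested genes. With the length trend removed 13 fell and 8 rose, where 991 of the 10806 tested genes were lower and 1084 higher, with a median of -0.09. Some of these genes are also in the lists above, so the counts are not separate evidence. The 4 genes with the smallest p were Fbn1, Ep300, Id2 and Rock1. Fbn1, the gene of fibrillin-1, whose microfibrils hold latent TGF-beta complexes, had 7.81 ± 0.619 FPKM in KO and 16.9 ± 0.690 FPKM in WT. Its log2 difference was -1.02 (adjusted p = 0.000217) as deposited, against -0.60 after removal of the length trend. Ep300, which encodes the co-activator p300 that SMADs recruit, had 4.29 ± 0.138 FPKM in KO and 9.06 ± 0.567 FPKM in WT. Its log2 difference was -0.93 (adjusted p = 0.000266) as deposited, against -0.53 after removal of the length trend. Rock1, a kinase gene of the actin cytoskeleton, had 6.29 ± 0.958 FPKM in KO and 12.8 ± 1.2 FPKM in WT. Its log2 difference was -0.93 (adjusted p = 0.000523) as deposited, against -0.62 after removal of the length trend. These 3 genes passed in that setting too.

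As a description over the 6 libraries, the genes whose log2(FPKM + 1) followed the mean of the 6 receptors most closely were Gja1, Zfp266, Clip1, Mecom and Foxp1, with Pearson's r of 0.998 to 0.999. The 6 libraries share 2 genotypes that stand apart in the receptor mean, and 1410 of 10343 genes had an r over 0.95 with it. Among the genes that followed the mean of the 4 targets closely were Mis18a, Nek8, Bola1 and Pstpip1, with r of 0.9597 to 0.9775, and 10 genes had an r over 0.95 with it.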
